A study of Mus musculus with 48 samples.

Results

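Nrf2 (the product of Nfe2l2), its inhibitor Keap1 and 6 target genes were followed in the lungs of 48 mice. The 8 genes were taken by symbol from a table of 47561 genes, and each symbol matched 1 row. All 8 passed the filter on low values, since each was above 1 FPKM (sequenced fragments scaled to transcript length and to the mapped fragments of a library, a level that can be compared between genes) in all 48 mice.

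Nrf2 is a transcription factor of the cap'n'collar family. In unstressed cells Keap1 holds it in the cytoplasm and presents it to a Cul3 ubiquitin ligase for degradation. Electrophiles and oxidants modify cysteines of Keap1, Nrf2 then accumulates, pairs with small Maf proteins and binds antioxidant response elements. The regulation acts largely on the protein, so the mRNA of Nfe2l2 is not a measure of its activity, while the mRNAs of its targets are commonly read as one. Nqo1 reduces quinones with NAD(P)H, and Hmox1 opens the heme ring and releases iron, carbon monoxide and biliverdin. Me1, Pgd, Taldo1 and Tkt belong to cytosolic pathways that supply NADPH, the electron donor of the glutathione and thioredoxin systems with which the lung meets oxygen stress.

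Each combination of strain, sex, injection and air held 3 mice. The strains were C3H/HeN (C3H) and C57Bl/6 (C57B), and the adult mice received 1 intraperitoneal injection of saline or of aurothioglucose (ATG, a gold thiolate known to block thioredoxin reductase) at 25 mg/kg. They were then kept for 96 h in room air or in hyperoxia of over 95% oxygen, after which the lung was collected. No group was genetically modified. The description of the series calls the strain C57B6/J and the paper C57Bl/6N, whereas the sample labels give only C57Bl/6, so the substrain of these mice is uncertain. Each library came from 1 mouse and from a piece of lung, so fewer cells of a type and less RNA per cell cannot be told apart. Sexes were pooled within a condition below unless stated, which gives 6 mice per strain, injection and air.

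The sum of FPKM lay between 510933 and 748290 per mouse. Scgb1a1, a club cell transcript, made up a median of 18.1% of it in room air and 4.61% in hyperoxia. All 946 protein coding genes of chromosome X were listed at 0 in every mouse, so no protein coding gene of that chromosome could be examined. The sex labels were not checked against the expression of other genes. Within the C3H males given saline in room air, mice 1 and 3 stood apart from mouse 2. On the main axis of variation between the mice (first principal component), mice 1 and 3 lay at -58.9 and -51.9. Mouse 2 (-45.6) lay among the other C3H mice in room air (-46.9 to -38.9). Mouse 1 also had the highest sum of FPKM and the highest Scgb1a1 share (30.2%). Fits without mouse 2 therefore rest on mice 1 and 3 in that group. Without mouse 2, the number of genes that differed by sex in room air was 3640 instead of 104, and without mice 1 and 3 it was 30. Differences were fitted on log2(FPKM + 1) with limma, a linear model whose variances are shared across genes, for genes of at least 1 FPKM in at least 3 of the mice fitted. Values are given as the log2 difference ± its standard error, and a gene is said to rise, fall or differ at an adjusted p under 0.05 over all genes tested.

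The genes lie on different chromosomes, except for pairs on chromosomes 8 and 9 (GRCm38, the assembly also known as mm10). Nfe2l2 spans chr2:75675513-75704641 on the minus strand and Keap1 chr9:21229730-21239361 on the minus strand. Nqo1 spans chr8:107388225-107403206 on the minus strand and Hmox1 chr8:75093621-75100589 on the plus strand. Me1 spans chr9:86581371-86695953 on the minus strand, Pgd chr4:149149991-149166771 on the minus strand, Taldo1 chr7:141392199-141402968 on the plus strand and Tkt chr14:30548359-30574720 on the plus strand. Keap1 shares 510 exon bases with Gm16754 on the opposite strand, and whether the authors' quantification used strand is not stated. Of the 30-base sequences of Me1, 37.4% also occur in transcripts of other genes, most of them in Gm7049, and the share was 14.5% for Taldo1, most of it with Gm17823. The levels of Me1 and Taldo1 are therefore uncertain to the extent that reads were divided between such copies. The share was 0 for Nfe2l2, Nqo1 and Hmox1, 1.92% for Pgd and 0.242% for Tkt.

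The antioxidant response element was looked for in the promoter windows of these genes, because most of them moved together in hyperoxia. RefSeq windows (GRCm38.p6) of 250 bases before to 50 after a gene's start were at hand for 7 of the 8 genes, with 2 starts each for Me1 and Pgd. The core of the element, searched as TGACNNNGC on both strands, occurred in 1 window each of Nfe2l2, Me1 and Pgd, and in 12.4% of all 32851 windows. A looser form, TGANNNNGC, which includes the first, was also found in the windows of Keap1, Taldo1 and Tkt and in 41.3% of all windows. Neither form was in the window of Nqo1. The starts used here are those of RefSeq and differ in part from the ends of the gene spans given above. The stretches of Me1, Pgd and Tkt below lie inside those spans. For Pgd the match was in the window of the start further inside the gene (chr4:149166033-149166332). The other Pgd window (chr4:149166656-149166955) held neither form. In the following 30-base stretches, written 5′ to 3′ on the strand of the gene, the capitals mark the match.
Nfe2l2, chr2:75704884-75704913, minus strand, match from 240 bases before the start: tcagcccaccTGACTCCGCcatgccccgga
Me1, chr9:86695901-86695930, minus strand, match from 6 bases before the start: gatgccgccgTGACTCAGCgcttctcgcgg
Pgd, chr4:149166060-149166089, minus strand, match from base 4 of the transcript: atttcagagcTGACATTGCactgatcggac
Keap1, chr9:21239374-21239403, minus strand, match on the opposite strand: gtccgccggtGCAGGTTCAgctggaggcgt
Taldo1, chr7:141391929-141391958, plus strand, looser match: tgaggcttacTGAGCGCGCgtctcagtaga
Tkt, chr14:30549084-30549113, plus strand, looser match: cggcctggggTGATTCGGCgccccgcccca
A match says only that these letters occur there. Binding of Nrf2 was not measured.

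In room air, the levels of the 8 genes were close between strains. In saline-treated C3H, median FPKM was 142.6 for Taldo1, 68.8 for Nfe2l2, 50.7 for Pgd, 43.4 for Tkt, 23.9 for Keap1, 23.2 for Hmox1, 23.2 for Me1 and 6.69 for Nqo1. In C57B the medians were 147.0, 74.5, 66.0, 46.4, 24.4, 28.1, 28.6 and 5.38 in the same order. Taldo1 lay above and Nqo1 below all the others in these 12 mice. Nfe2l2 and Pgd overlapped in both strains, and Pgd and Tkt in C3H, whereas in C57B every value of Pgd was above every value of Tkt. Keap1, Hmox1 and Me1 overlapped with each other in C3H, while in C57B Me1 lay above Keap1 and Hmox1 overlapped with both.

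Of the 8 genes, 2 were lower in C3H than in C57B in room air, against 7.87% of the 15546 genes tested. Me1, the cytosolic malic enzyme, was 19.4 to 24.6 FPKM (median 23.2) in C3H and 26.2 to 32.6 FPKM (median 28.6) in C57B. Every C57B mouse was above every C3H mouse, which held for 1 of the 8 genes and 5.98% of all genes, and the difference was -0.34 ± 0.09 (adjusted p = 0.0296). Pgd, which makes NADPH in the last oxidative step of the pentose phosphate pathway, was 37.5 to 56.8 FPKM in C3H and 53.4 to 71.0 FPKM in C57B. The ranges overlapped, with C3H males 1 and 3 at the bottom (37.5 and 38.3 FPKM), and the difference was -0.42 ± 0.11 (adjusted p = 0.0303). Both calls depended on single mice and on the scaling. Me1 was no longer called without any 1 of mice 3, 13, 15, 25, 26, 37 or 39 (adjusted p between 0.0525 and 0.0802), and Pgd without any 1 of mice 1, 3, 13, 14, 15, 25, 26, 38 or 39 (adjusted p between 0.0532 and 0.0808). Without mice 1 and 3 together the differences were -0.28 (adjusted p = 0.107) for Me1 and -0.23 (adjusted p = 0.157) for Pgd. With median ratio scaling Me1 was no longer called (-0.24, adjusted p = 0.0816), and with scaling without Scgb1a1 neither Me1 (-0.32, adjusted p = 0.0636) nor Pgd (-0.40, adjusted p = 0.0662) was. Cell markers also differed between the strains in room air. Of 8 markers each, 6 of alveolar type 2 cells and 6 of neutrophils were lower in C3H and 5 of alveolar type 1 cells were higher, and all 4 B cell markers were lower. The part of these cells in the strain differences was not tested.

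The strain difference in room air of the other 6 genes did not pass the threshold. It was -0.29 ± 0.12 for Nfe2l2 (adjusted p = 0.154) and lay between -0.17 and 0.27 for the rest. Nfe2l2 passed it without mouse 2 (-0.39, adjusted p = 0.0121), a fit in which 4021 genes were called in place of 1832. Without mice 1 and 3 the difference of Nfe2l2 was -0.09. Across all genes the median strain difference was -0.10, and it was -0.0017 when each mouse was scaled by the median ratio of its genes, so that 33.2% of the calls were higher in C3H on the FPKM scale and 48.5% after that scaling.

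None of the 8 genes was called by sex in room air, where 0.669% of genes were, and none for a difference of the sex effect between strains, where 0.0% of genes were. At an unadjusted p under 0.05 these comparisons held 2 and 0 of the 8, and 23.3% and 16.3% of all genes. Nfe2l2 was 36.8, 63.1 and 47.5 FPKM in C3H males and 81.5, 74.4 and 81.6 FPKM in C3H females. In C57B it was 70.6, 59.9 and 71.5 FPKM in males and 77.4, 88.4 and 89.5 FPKM in females. Males were below females in both strains without overlap, by -0.52 ± 0.12 averaged over strains (adjusted p = 0.0750). Without mouse 2 the difference was -0.62 (adjusted p = 0.00402), and without mice 1 and 3 it was -0.33, which was not called. Taldo1, the transaldolase of the pentose phosphate pathway, was 0.21 ± 0.08 higher in males (adjusted p = 0.165).

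**Figure D1:**
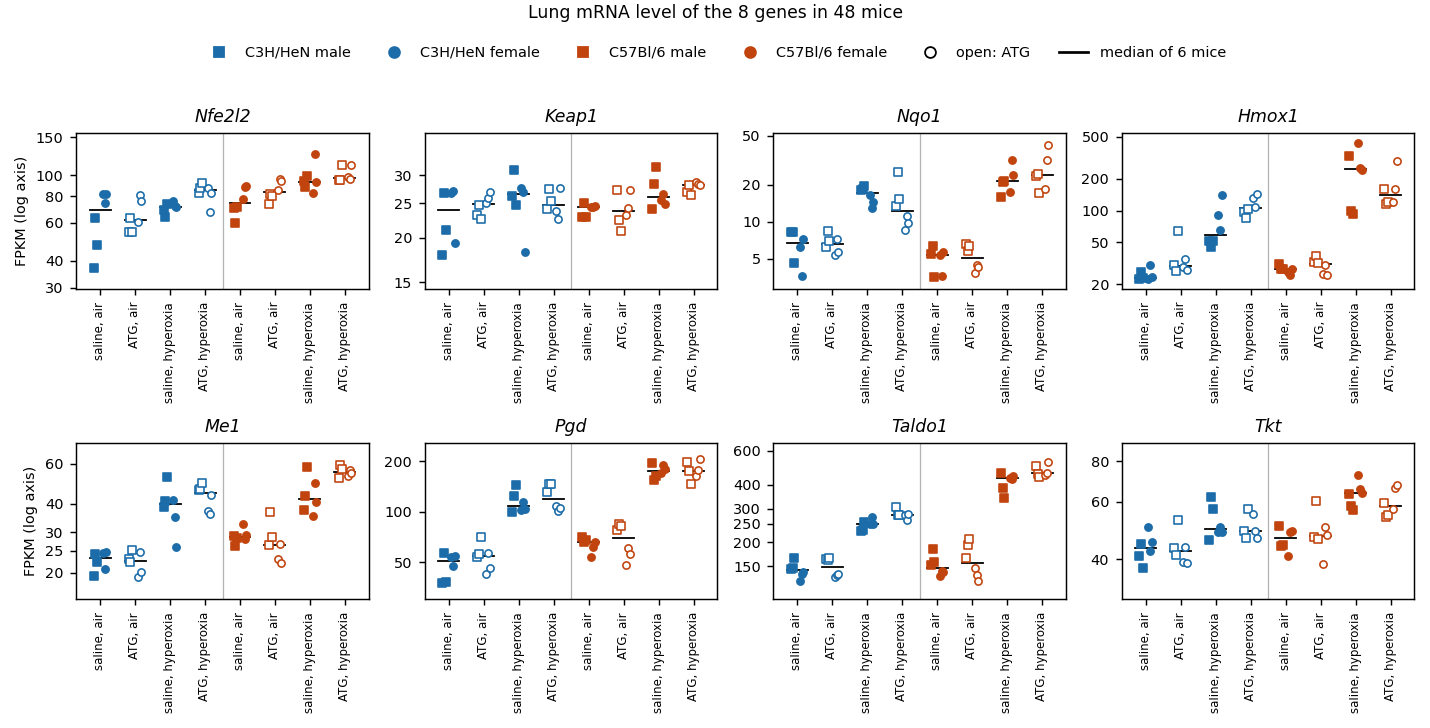
FPKM of each of the 8 genes (log axis) in the 48 mice, 1 point per mouse, by strain (blue C3H, orange C57B), sex (squares males, circles females), injection (filled saline, open ATG) and air, with the median of 6 mice as a bar. Nqo1, Hmox1, Pgd and Taldo1 stand higher in hyperoxia than in room air in both strains, whereas Keap1 stays between 17.9 and 31.7 FPKM throughout.

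Hyperoxia raised 6 of the 8 mRNAs in saline-treated C3H and 7 of 8 in C57B and lowered none. Of the 16321 genes tested, 25.3% rose and 12.5% fell in C3H, and 25.5% rose and 30.0% fell in C57B. The median difference over the 8 genes was 0.77 in C3H and 1.01 in C57B, beside 0.10 and -0.06 over all genes. The groups did not overlap for 5 of the 8 genes in C3H and for 6 in C57B, whereas they did not overlap for 14.3% and 32.4% of all genes. Scaling by the median ratio moved the median over all genes in C3H to -0.02. The share of calls that were rises then was 48.7% in place of 66.9% in C3H, and 48.7% in place of 45.9% in C57B.

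The transcription factor and its inhibitor moved little at the mRNA level. Nfe2l2 in C3H was 36.8 to 81.6 FPKM (median 68.8) in room air and 64.1 to 76.0 FPKM (median 71.5) in hyperoxia, and in C57B it was 59.9 to 89.5 FPKM (median 74.5) and 82.5 to 126.1 FPKM (median 93.2). The C3H values in hyperoxia lay inside the room air range, whereas in C57B 4 of the 6 hyperoxia mice were above every room air mouse. The difference was 0.20 ± 0.11 in C3H (adjusted p = 0.174) and 0.34 ± 0.11 in C57B (adjusted p = 0.0132). The C3H value was 0.30 without mouse 2 (adjusted p = 0.0212) and 0.0044 without mice 1 and 3. After quantile normalization the C57B value was 0.13 (adjusted p = 0.294), so the call depended on the scaling. Keap1 was 17.9 to 27.1 FPKM in room air and 18.2 to 31.0 FPKM in hyperoxia in C3H, and 22.9 to 25.0 and 24.1 to 31.7 FPKM in C57B. In C57B 4 of the 6 hyperoxia mice were above every room air mouse. An exact permutation test of FPKM, not adjusted for the number of comparisons, gave p = 0.0195 in C57B and 0.327 in C3H. The limma difference of Keap1 was 0.15 ± 0.12 in both strains and was not called. Its 95% intervals ran from -0.10 to 0.39 and from -0.09 to 0.40, and it was -0.0023 in C3H after median ratio scaling.

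Nqo1 and Hmox1, the targets most often used to read Nrf2 activity, had larger log2 differences than the NADPH suppliers Me1 and Tkt in both strains. The other NADPH suppliers were less apart from them. In C3H Pgd (1.24 ± 0.11) was close to Nqo1 and Taldo1 (0.79 ± 0.08) to Me1. In C57B Pgd (1.44 ± 0.11) and Taldo1 (1.45 ± 0.08) lay between Me1 and Nqo1. Nqo1 in C3H was 3.60 to 8.23 FPKM (median 6.69) in room air and 13.0 to 19.4 FPKM (median 17.2) in hyperoxia. In C57B it was 3.52 to 6.28 FPKM (median 5.38) and 15.9 to 31.7 FPKM (median 21.2). Every mouse in hyperoxia was above every mouse in room air of its strain, and the rise was 1.30 ± 0.18 in C3H (adjusted p = 1.2e-05) and 1.93 ± 0.18 in C57B (adjusted p = 2.34e-08).

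Hmox1 in C3H was 22.5 to 30.3 FPKM (median 23.2) in room air, and in hyperoxia 51.9, 44.8 and 51.5 FPKM in males and 90.7, 64.8 and 138.9 FPKM in females. In C57B it was 24.8 to 31.2 FPKM (median 28.1) in room air, and in hyperoxia 329.1, 98.1 and 92.5 FPKM in males and 434.5, 250.1 and 242.2 FPKM in females. No mouse in hyperoxia overlapped with room air, and the mice in hyperoxia differed far more among themselves than those in room air. Mouse 19 stood above the other C57B males, and every female was above every male in C3H. The rise was 1.43 ± 0.24 in C3H (adjusted p = 0.000119), or 2.70-fold, and 2.86 ± 0.24 in C57B (adjusted p = 7.99e-09), or 7.25-fold. In C3H males alone it was 1.01 (adjusted p = 0.0630).

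Of the enzymes that supply NADPH, Pgd rose from a median of 50.7 to 108.7 FPKM in C3H and from 66.0 to 175.0 FPKM in C57B. Its lowest value in hyperoxia, 99.5 FPKM in C3H and 154.8 FPKM in C57B, was above the highest in room air of its strain, 56.8 and 71.0 FPKM. The rise was 1.24 ± 0.11 (adjusted p = 3.35e-08) and 1.44 ± 0.11 (adjusted p = 1.19e-09). Me1, which makes NADPH from malate, was 19.4 to 24.6 FPKM in room air and 25.9 to 52.3 FPKM in hyperoxia in C3H, and 26.2 to 32.6 and 35.5 to 58.3 FPKM in C57B. Neither pair overlapped, although C3H female 33 (25.9 FPKM) was only just above the room air mice. The rise was 0.74 ± 0.12 in C3H (adjusted p = 0.000104) and 0.58 ± 0.12 in C57B (adjusted p = 0.000551).

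Taldo1 and Tkt, the enzymes of the nonoxidative branch that return pentoses to glycolytic sugars and so feed the oxidative branch again, differed in the size of their rise. Taldo1 in C3H was 126.1 to 164.9 FPKM (median 142.6) in room air, and 229.9, 232.7 and 254.8 FPKM in males and 248.7, 271.9 and 249.5 FPKM in females in hyperoxia. In C57B it was 133.8 to 185.2 FPKM (median 147.0) in room air, and 461.3, 382.7 and 340.5 FPKM in males and 434.8, 428.4 and 445.3 FPKM in females in hyperoxia. Air separated the mice of each strain without overlap, and in hyperoxia every C57B mouse was above every C3H mouse. The rise was 0.79 ± 0.08 in C3H (adjusted p = 1.98e-07) and 1.45 ± 0.08 in C57B (adjusted p = 1.39e-11). Tkt was 37.6 to 50.2 FPKM in room air and 45.7 to 62.1 FPKM in hyperoxia in C3H, which overlapped, and 41.0 to 50.5 and 56.6 to 72.8 FPKM in C57B, which did not. Its rise was 0.25 ± 0.08 in C3H (adjusted p = 0.0211) and 0.45 ± 0.08 in C57B (adjusted p = 0.000124). The C3H rise of Tkt was 0.10 after median ratio scaling (adjusted p = 0.414) and after quantile normalization (adjusted p = 0.355), 0.22 without mouse 3 (adjusted p = 0.0563), 0.21 without mouse 8 (adjusted p = 0.0682), 0.23 without mouse 26 (adjusted p = 0.0555) and 0.19 without mice 1 and 3 (adjusted p = 0.159). In fits of 1 sex it passed in neither sex, and in C57B Tkt did not pass in males (0.36, adjusted p = 0.0737) and Nfe2l2 in neither sex (0.47 in males, adjusted p = 0.0560, and 0.22 in females, adjusted p = 0.217).

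**Figure D2:**
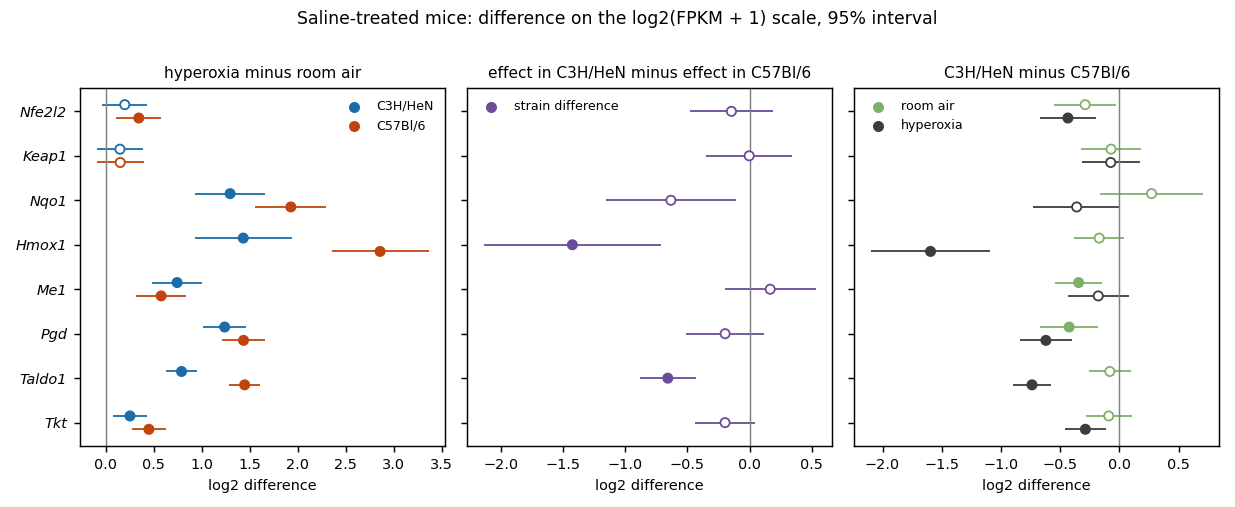
Log2 differences with 95% intervals for the 8 genes in the 24 saline-treated mice: hyperoxia minus room air by strain (left), the C3H effect minus the C57B effect (middle) and C3H minus C57B by air (right). Filled points passed the threshold and open points did not, and in the middle panel only Hmox1 (-1.42) and Taldo1 (-0.66) are filled.

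The strains differed in how far hyperoxia raised 2 of the 8 mRNAs, Hmox1 and Taldo1, and both rose less in C3H. Over all genes, the difference of effects was called below 0 for 2.81% and above 0 for 8.71%. The difference was -1.42 ± 0.34 for Hmox1 (adjusted p = 0.0114) and -0.66 ± 0.11 for Taldo1 (adjusted p = 0.000893). Both calls were kept under each of the other scalings and without any single mouse. With 1 sex alone, Hmox1 was not called in males (-1.26, adjusted p = 0.181) or females (-1.59, adjusted p = 0.0712), and Taldo1 was called in females (-0.71, adjusted p = 0.0214) and not in males (-0.60, adjusted p = 0.123).

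For Nqo1 the difference of effects was -0.63 ± 0.25 (adjusted p = 0.102), and it passed the threshold after median ratio scaling (-0.81, adjusted p = 0.0334) and quantile normalization (-0.82, adjusted p = 0.0315). That of Tkt was -0.20 ± 0.12 (adjusted p = 0.283), and -0.39 after median ratio scaling (adjusted p = 0.0478). For the other 4 genes the 95% intervals ran from -0.48 to 0.18 for Nfe2l2, from -0.35 to 0.34 for Keap1, from -0.20 to 0.53 for Me1 and from -0.51 to 0.12 for Pgd. Over all genes the median difference of effects moved from 0.15 to -0.0018 with median ratio scaling, and the share of calls above 0 from 75.6% to 45.7%.

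In hyperoxia itself, 5 of the 8 mRNAs were lower in C3H than in C57B and none was higher, where 11.1% of all genes were lower and 16.1% higher. Hmox1 was lower by -1.59 ± 0.24 (adjusted p = 6.28e-05), Taldo1 by -0.74 ± 0.08 (adjusted p = 5.56e-07) and Pgd by -0.62 ± 0.11 (adjusted p = 0.000214). Nfe2l2 was lower by -0.43 ± 0.11 (adjusted p = 0.00663) and Tkt by -0.29 ± 0.08 (adjusted p = 0.0139). For Nfe2l2, Pgd and Taldo1 every C57B mouse in hyperoxia was above every C3H mouse, while Hmox1 and Tkt overlapped. Groups without overlap made up 3 of the 8 genes and 10.8% of all genes. Nqo1 (-0.36 ± 0.18, adjusted p = 0.140), Me1 (-0.18 ± 0.12, adjusted p = 0.309) and Keap1 (-0.07 ± 0.12, adjusted p = 0.689) did not pass. These calls use the same hyperoxia mice as the difference of effects above and are not independent of it. All 5 kept their call under the other scalings and without any single mouse, whereas in males alone Hmox1 and Taldo1 kept it and in females alone Nfe2l2 lost it. The median over all genes was 0.05, and 59.3% of the calls were higher in C3H, against 47.9% after median ratio scaling.

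None of the 8 genes was called for a difference of the hyperoxia effect between the sexes, where 0.0368% of genes were, and 3 of the 8 had an unadjusted p under 0.05, as did 18.2% of all genes. The male effect minus the female effect had a 95% interval from -1.72 to -0.29 for Hmox1 (adjusted p = 0.177), and it was -0.34 ± 0.11 for Taldo1 (adjusted p = 0.168) and 0.44 ± 0.16 for Nfe2l2 (adjusted p = 0.185). Without mouse 19, the C57B male whose Hmox1 was 329.1 FPKM, the difference passed for Hmox1 (-1.30, adjusted p = 0.0134) and Taldo1 (-0.40, adjusted p = 0.0310). Without mouse 2 it passed for Nfe2l2 (0.54, adjusted p = 0.0283), a fit in which 1270 genes were called in place of 6. Without mice 1 and 3 the difference of Nfe2l2 was 0.25.

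The other genes of the pathway, taken from lists, moved in hyperoxia as follows. Beside these counts, 25.3% of all genes rose and 12.5% fell in C3H, and 25.5% rose and 30.0% fell in C57B. Of 13 regulators of Nrf2, 7 rose and 0 fell in C3H, and 8 rose and 2 fell in C57B. The 2 largest rises were shared. Maff, a small Maf partner, rose by 2.81 in C3H and 2.29 in C57B, and Sqstm1, the autophagy receptor p62 that binds Keap1, rose by 1.25 and 1.43. The 2 that fell in C57B were Bach2 (-0.81), a repressor related to Bach1, and Btrc (-0.67), the ligase adaptor that acts on Nrf2 phosphorylated by Gsk3b. The difference between strains passed for 1 of the 13 regulators, the Keap1-binding phosphatase Pgam5 (-0.49). Over all genes, 2.81% had a lower effect in C3H and 8.71% a higher one.

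Of 33 further Nrf2 targets, 32 were tested. In C3H 23 rose and 2 fell, and in C57B 17 rose and 4 fell, with a median of 0.62 and 0.48. The largest rises in C3H were Gclc (2.37), the catalytic subunit of the first enzyme of glutathione synthesis, and Gpx2 (2.36), a glutathione peroxidase. In C57B they were Akr1b8 (3.00), an aldo-keto reductase, and Slc7a11 (2.94), the cystine transporter. The median of Slc7a11 was 0.511 FPKM in C3H and 0.263 FPKM in C57B in room air, and 3.86 and 10.8 FPKM in hyperoxia. The 1 added to FPKM before taking log2 shrinks differences of genes this low. The size and rank of the rise of Slc7a11, and its strain difference, therefore depend on it. The falls in C3H were Gstm1 (-0.78), a glutathione S-transferase, and the carbonyl reductase Cbr1 (-0.30), and the largest in C57B were the aldehyde oxidase Aox1 (-1.47) and Gstm1 (-1.29), ahead of Gstm3 (-0.92) and Cbr1 (-0.59). The effect was lower in C3H for 5 of the 32, the largest differences being Slc7a11 (-1.13) and Gclm (-1.05), the modifier subunit of the enzyme of Gclc, ahead of Osgin1 (-0.99), Esd (-0.98) and Akr1b8 (-0.67). It was higher in C3H for 3, Aox1 (1.51), the export pump Abcc3 (1.03) and the epoxide hydrolase Ephx1 (0.89). In hyperoxia 12 of the 32 were lower in C3H, led by Gclc (-1.65) and Esd (-1.31), and 4 were higher, namely Abcc3 (1.31), Aox1 (1.17), Gstm1 (0.86) and Ephx1 (0.81). Over all genes, the effect was lower in C3H for 2.81% and higher for 8.71%. The level in hyperoxia was lower in C3H for 11.1% of all genes and higher for 16.1%. The 3 and 4 of 32 targets that were higher in C3H are near these shares. In room air 2 of 31 were lower in C3H and none higher, Gclc by -1.15 and Cbr1 by -0.45. This count is near the share over all genes, of which 7.87% were lower in C3H in room air.

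Of 12 genes of heme and iron handling, the substrates and products of Hmox1, 8 rose and 1 fell in C3H, and 5 rose and 1 fell in C57B. In C3H the largest rises were Hpx (1.28), which carries heme in plasma, and the iron exporter Slc40a1 (1.10), and Fech (-0.76), which puts iron into heme, fell. In C57B they were Cd163 (1.78), the macrophage receptor for haptoglobin with hemoglobin, and the ferritin chain Fth1 (1.35), followed by Ftl1 (1.26), Blvrb (0.97) and Slc48a1 (0.64), and Hp (-1.32), haptoglobin itself, fell. Like Hmox1, Cd163 (-0.86) and Fth1 (-0.60) had a lower effect in C3H, whereas Hp (1.60) and Slc40a1 (1.15) had a higher one. These were 2 and 2 of the 12 genes, where 2.81% of all genes had a lower effect and 8.71% a higher one. Hp is also on the list of club cell markers used below, so the 2 lists are not separate for this gene.

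Of 17 other genes of NADPH supply, 16 were tested, and they did not move as the 4 described above. In C3H 5 rose and 2 fell, and in C57B 6 rose and 7 fell. In both strains the largest rises were those of the mitochondrial folate enzymes Mthfd2 (2.52 and 2.71) and Aldh1l2 (1.41 and 1.75), the latter of which makes NADPH. The falls in C3H were Nnt (-0.39), the mitochondrial transhydrogenase, and Nadk2 (-0.33), the mitochondrial NAD kinase. The largest falls in C57B were again Nadk2 (-0.78) and Nnt (-0.76). Rpe (0.48) of the nonoxidative branch and Idh2 (0.74), the mitochondrial isocitrate dehydrogenase, had a higher effect in C3H. These 2 of the 16 are near the share over all genes, of which 8.71% had a higher effect in C3H. Nnt was expressed in both strains in room air, at 8.82 to 13.8 FPKM in C3H and 10.6 to 16.7 FPKM in C57B. G6pdx, the first enzyme of the oxidative branch and the usual companion of Pgd, was listed at 0 in every mouse, as was all of chromosome X, and its level is not known from these data. The level listed for G6pd2, a gene similar to G6pdx, rose by 0.64 in C3H and 0.75 in C57B. Since G6pdx was at 0, reads of G6pdx could have been counted under G6pd2, so this rise cannot be assigned to either gene. Whether this happened was not tested. The remaining rises in C3H were those of Nadk (0.57) and Pgls (0.31).

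**Figure D3:**
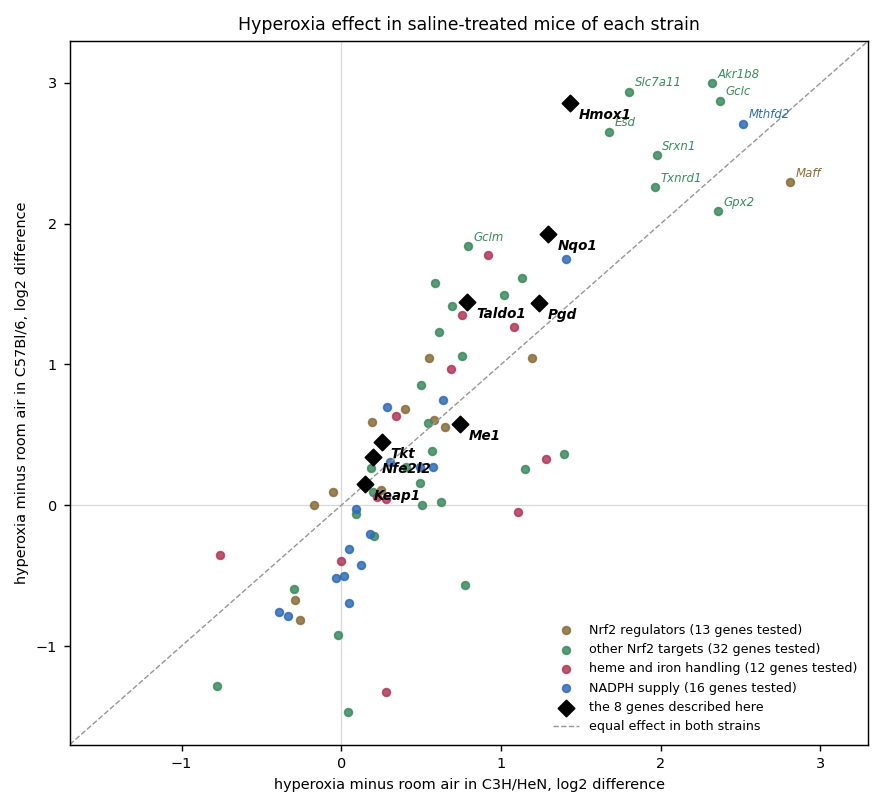
Log2 difference between hyperoxia and room air in saline-treated C3H (horizontal) and C57B (vertical), 1 point per gene, with the 8 genes as black diamonds and 4 lists of related genes in color. Hmox1 lies at 1.43 and 2.86 and Taldo1 at 0.79 and 1.45, both above the dashed line of equal effect, and Maff (2.81 and 2.29) lies below it.

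Markers of several lung cell types changed with hyperoxia in the same mice. The summed FPKM of 10 alveolar macrophage markers was 521.5 to 721.8 in room air and 509.1 to 1014 in hyperoxia in C3H, and 337.6 to 827.0 and 830.2 to 2028 in C57B. In hyperoxia 5 of the 10 rose and 2 fell in C3H, and 4 rose and 4 fell in C57B. For 8 neutrophil markers the sum was 138.2 to 316.4 and 183.0 to 6375 in C3H, and 186.5 to 799.4 and 168.3 to 4968 in C57B, and 2 and 5 of the 8 rose, with none falling. Of 8 recruited monocyte markers, 3 rose and 0 fell in C3H, and 4 rose and 2 fell in C57B, with sums of 227.6 to 430.7 and 417.0 to 1282 in C3H and of 203.8 to 380.9 and 319.8 to 984.3 in C57B. None of the macrophage or neutrophil markers was at 0 throughout.

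Single mice in hyperoxia showed how these sums stood beside Hmox1. In C57B the 4 mice with the highest Hmox1 (mice 19, 43, 44 and 45) had neutrophil sums of 4968, 4055, 2195 and 4204, and mice 20 and 21, with Hmox1 of 98.1 and 92.5 FPKM, had 291.4 and 168.3. In C3H the highest Hmox1 (138.9 FPKM) and the highest neutrophil sum (6375) were both in female 33, whereas female 31 had more Hmox1 than female 32 (90.7 and 64.8 FPKM) at a lower neutrophil sum (186.0 and 1514). Macrophage sums were 1459 to 2028 in the 4 C57B mice and 830.2 and 992.7 in the other two. C3H female 33 had a neutrophil sum above every C57B mouse. Its macrophage sum (1014) and its Hmox1 were both below those of the same 4 C57B mice. The part of these cells in the level of Hmox1 was not tested.

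Other lists fell in hyperoxia. Of 8 markers each, 3 club cell markers fell in C3H and 6 in C57B, 4 and 6 of alveolar type 2 cells and 3 and 8 of ciliated cells. A higher effect in C3H was called for 6 of the club cell markers, and for 8.71% of all genes. The summed alveolar type 2 level was 26358 to 40530 in room air and 6177 to 22531 in hyperoxia in C3H, and 35450 to 50515 and 7190 to 12706 in C57B. All 6 tested erythroid markers fell in both strains, from sums of 12283 to 67963 to 304.9 to 2004 in C3H and from 3342 to 18945 to 435.4 to 1258 in C57B, with Alas2, an X-linked gene, listed at 0. Whether these shifts bear on the 8 genes was not tested. The surfactant and secretoglobin transcripts that define lung were high in every mouse, and markers of cardiac muscle reached a sum of 1842 in 1 room air mouse.

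The limma test called none of the 8 mRNAs for ATG, in either air or strain. In room air the test called 0.00616% of genes in C3H, 0.0555% in C57B and 0.0% for the difference between strains, and at an unadjusted p under 0.05 it held 1, 0 and 0 of the 8, and 7.84%, 4.37% and 4.58% of all genes. In hyperoxia it called 2.65% of genes in C3H, 0.864% in C57B and 0.416% for the difference between strains, with 3, 2 and 1 of the 8 at an unadjusted p under 0.05, as were 16.7%, 19.4% and 13.3% of all genes. For a difference of the ATG effect between hyperoxia and room air, over all 48 mice, it called 2.77% of genes, and 1 of the 8 had an unadjusted p under 0.05, as did 18.8% of all genes. An exact two-sided permutation test of the FPKM of 6 against 6 mice, run for these 8 genes alone and not adjusted for the 64 comparisons made, gave a p under 0.05 in 5 of the 32 that concern ATG. The test was not run for other genes, so no share over all genes can be set beside this count. In all 5 the mean was higher after ATG, and limma called none of them. The exact p was 0.00433 for Taldo1 and 0.013 for Nfe2l2 in C3H in hyperoxia, 0.026 for Taldo1 and 0.0195 for Me1 in C57B in hyperoxia, and 0.013 for Hmox1 in C3H in room air, where the smallest p the test can give is 0.00216. No group given ATG stood apart from its saline group without overlap for any of the 8 genes, in comparisons where this held for 0.0986% (C3H) and 0.148% (C57B) of genes in room air and 1.70% and 1.20% in hyperoxia.

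Hmox1 in C3H in hyperoxia was 44.8 to 138.9 FPKM (median 58.3) after saline and 84.3 to 141.9 FPKM (median 106.5) after ATG, a difference of 0.68 ± 0.27 (adjusted p = 0.200). In C57B in hyperoxia it was 92.5 to 434.5 FPKM (median 246.1) after saline and 115.5 to 290.9 FPKM (median 140.6) after ATG, a difference of -0.44 ± 0.27 (adjusted p = 0.387). The medians moved toward each other, and the difference of these effects was 1.12 ± 0.39 (adjusted p = 0.214, 95% interval 0.32 to 1.93). Markers moved with ATG in the same mice. In C3H in hyperoxia 7 of 10 alveolar macrophage markers fell with ATG, from a median sum of 660.3 to 304.4, and 2 of 8 recruited monocyte markers rose. In C57B in hyperoxia the median neutrophil sum was 3125 after saline and 399.6 after ATG, with 0 of 8 markers called. The part of these cells in the values of Hmox1 was not tested. In room air Hmox1 was 0.44 ± 0.15 higher after ATG in C3H (adjusted p = 0.619), where male 6 reached 64.2 FPKM and the others 26.8 to 34.9 FPKM, and 0.11 ± 0.15 higher in C57B (adjusted p = 1.00).

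Me1 in C57B in hyperoxia was 35.5 to 58.3 FPKM (median 42.1) after saline and 51.8 to 59.2 FPKM (median 55.5) after ATG. The ranges overlapped through saline male 21 at 58.3 FPKM, and the difference was 0.34 ± 0.12 (adjusted p = 0.137). Without mouse 21 it was 0.42 (adjusted p = 0.0474), and the difference of the ATG effect between airs for Me1, 0.30 ± 0.11 (adjusted p = 0.101), became 0.35 (adjusted p = 0.0466). Taldo1 in hyperoxia was 0.18 ± 0.07 higher after ATG in C3H (adjusted p = 0.195) and 0.19 ± 0.07 in C57B (adjusted p = 0.160). Nqo1 in hyperoxia was 13.0 to 19.4 FPKM after saline and 8.58 to 25.2 FPKM after ATG in C3H (-0.31 ± 0.18, adjusted p = 0.410), and 15.9 to 31.7 and 17.1 to 42.3 FPKM in C57B (0.22 ± 0.18, adjusted p = 0.531). The difference of these effects was -0.53 ± 0.26 (adjusted p = 0.377). For Nfe2l2 the difference in C3H in hyperoxia was 0.22 ± 0.09 (adjusted p = 0.209). For Keap1, Pgd and Tkt in hyperoxia the differences lay between -0.09 and 0.10, with 95% intervals within -0.25 and 0.29. Of the related genes, Hpx (1.44) and the NAD kinase Nadk (0.34) rose with ATG in hyperoxia in C3H and the ferritin chain Ftl1 (0.31) in C57B. In C3H these were 1 of 12 heme and iron genes and 1 of 16 NADPH supply genes. In C57B it was 1 of 12 heme and iron genes. None of the 13 regulators or the 32 other targets was called. Over all genes, 2.65% were called in C3H and 0.864% in C57B. With at most 1 call per list, these counts do not set the lists apart from all genes.

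**Figure D4:**
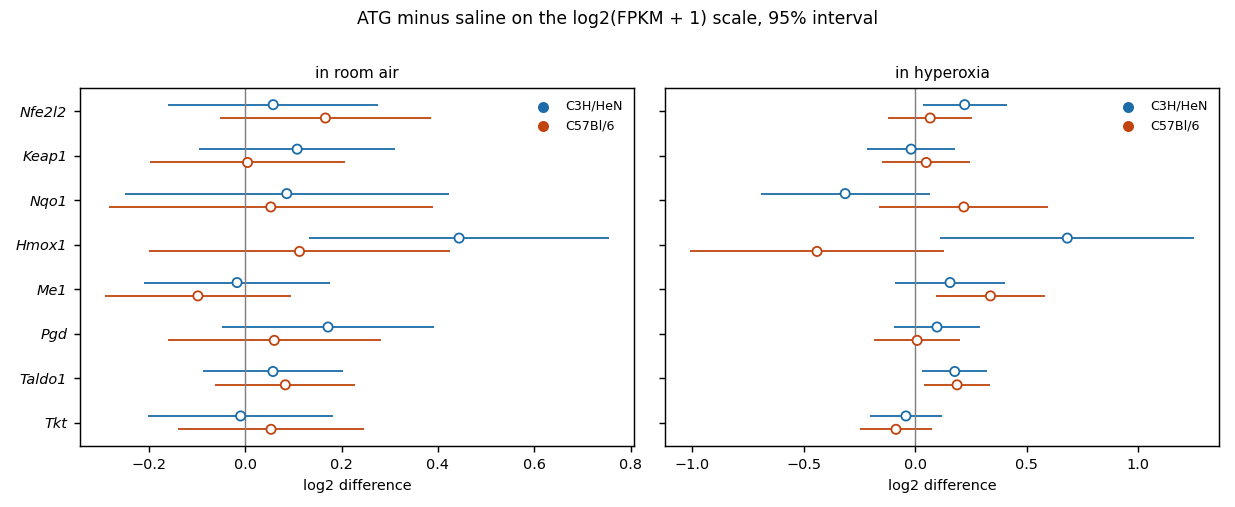
Log2 difference between ATG and saline with 95% intervals for the 8 genes in room air (left) and hyperoxia (right), by strain. All points are open, since none passed the threshold, and in hyperoxia Hmox1 lies at 0.68 in C3H and at -0.44 in C57B.

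Across all 48 mice Hmox1 varied the most, 19.3-fold from 22.5 to 434.5 FPKM, followed by Nqo1 with 12.0-fold from 3.52 to 42.3 FPKM. Pgd varied 5.48-fold, Taldo1 4.21-fold, Nfe2l2 3.43-fold, Me1 3.11-fold, Tkt 1.94-fold and Keap1 1.77-fold. Over the means of the 16 groups, log2(FPKM + 1) of Taldo1 had a Pearson r of 0.97 with Pgd, 0.95 with Hmox1 and 0.94 with Nqo1. That of Nfe2l2 had an r of 0.48 with Nqo1 and 0.62 with Hmox1, and Keap1 0.71 and 0.62. These values describe 16 points that share the step from room air to hyperoxia. Among 16994 genes the patterns most like that of Nqo1 were Eprs (r of 0.973), a tRNA synthetase, Gm11224 (0.972) and Slc7a11 (0.971). Those most like Hmox1 were Pa2g4 (0.984), Eif5a (0.984), a translation factor, and Hif1a (0.982), the oxygen-regulated transcription factor. Hif1a was 11.8 to 24.4 FPKM in room air and 29.0 to 113.8 FPKM in hyperoxia in saline-treated C3H, and 15.5 to 20.6 and 75.9 to 164.7 FPKM in C57B.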

How the data were processed

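Lung RNA of 48 mice was sequenced as polyA-selected libraries. Per the labels' processing notes, GSNAP placed the reads of the authors on mm10 and Cufflinks gave FPKM, and the deposited FPKM values, 1 per gene and mouse, were used as they stand. The annotation used and the handling of strand are not given in the sources used here. The columns of mice 1 and 2 hold FPKM like the others. FPKM are not counts, the absolute depth is unknown, and no counting error can be given, so precision comes from the spread between mice.

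Groups were taken from the labels. Mice carry numbers of their own and were not paired between groups. Log2(FPKM + 1) was fitted with limma 3.58.1 (lmFit, eBayes with trend) in R 4.3.3, for genes of at least 1 FPKM in at least 3 of the mice fitted, with sex as a factor and Benjamini-Hochberg adjustment over all genes tested. The pseudocount of 1 understates changes of low genes such as Nqo1. Strain, sex and hyperoxia effects used the saline mice, and ATG effects the mice of 1 air. Exact two-sided permutation tests of FPKM compared 6 mice with 6 for the 8 genes, sexes pooled, 64 in all. Dixon's ratio was computed for each gene and condition of 6 mice. Coordinates come from GENCODE M21. The fits were tested on simulated data.

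The 8 genes and all lists were chosen with earlier results of these data known. The text names the 8 genes, Nnt, G6pdx, the listed genes past the threshold with the 2 largest rises and falls per list and comparison, members of counts of 5 or fewer, and the 3 genes most like Nqo1 and Hmox1. The levels of Hif1a were added after its values were seen. The alternatives were a pseudocount of 0.1, no filter or a filter at 5 FPKM, quantile normalization, median ratio scaling, scaling without Scgb1a1, eBayes without trend, single sexes, 1 fit of all 48 mice, leaving out each mouse and, chosen after seeing the data, leaving out mice 1 and 3.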

Additional observations from a re-analysis of the deposited data

Results flagged for a closer look

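In groups of 6 mice of the same strain, injection and air, a value was singled out where its gap to the nearest mouse, divided by the range, passed Dixon's critical value of 0.625. Of 64 sets tested 4 did, and chance singles out about 1 in 20. Hmox1 was 64.2 FPKM in C3H male 6, given ATG in room air, with the nearest mouse at 34.9 FPKM. In the same mouse Tkt was 52.9 FPKM, with the nearest at 43.5 FPKM. Hmox1 was 290.9 FPKM in C57B female 48, given ATG in hyperoxia, with the nearest at 160.2 FPKM. Nfe2l2 was 67.4 FPKM in C3H female 35, given ATG in hyperoxia, with the nearest at 82.6 FPKM.

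The effect of hyperoxia differed between the strains for Hmox1 and Taldo1 by the interaction term of the limma fit, with a log2 difference of -1.42 for Hmox1 and -0.66 for Taldo1, both lower in C3H.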

How the results depend on the processing

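Of 120 member comparisons, 97 kept their call under every alternative run. Of the 22 that passed the threshold, 11 did so under every alternative, and none reversed. The number of the 8 genes called for strain in room air was 2, and it was 1 with median ratio scaling, 0 with scaling without Scgb1a1, in males, in females and without mice 1 and 3 (chosen after seeing the data), 3 in the fit of all 48 mice and 0 to 3 without single mice. For sex in room air it was 0, and 1 with scaling without Scgb1a1, 2 in the fit of all 48 mice and 0 to 1 without single mice. The strain by sex difference in room air gave 0 to 1 without single mice. The strain difference in the effect of hyperoxia gave 2, and 4 with median ratio scaling, 3 with quantile normalization, 0 in males and 1 in females. Strain in hyperoxia gave 5, and 2 in males. Hyperoxia in C3H gave 6, with 4 to 7 over all alternatives, and hyperoxia in C57B 7, with 5 to 7. Without single mice, the sex difference in the effect of hyperoxia gave 0 to 2, ATG in hyperoxia in C57B 0 to 1 and ATG by air 0 to 1. The cause was not tested, except that fits of 1 sex hold fewer mice.

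Counts over all genes moved more. Those of the strain by sex difference ran from 0 to 2741 and those of sex in room air from 20 to 3640, where the main counts were 0 and 104, and both highest values came from leaving out mouse 2. For strain in room air the main count of 1832 ran from 779 to 4021, for hyperoxia in C3H that of 6169 from 3380 to 7007, in C57B that of 9063 fell to 5059 in males, and for the strain difference in the effect of hyperoxia that of 1880 ran from 206 to 3242. Strain in hyperoxia, with 4441, fell to 1614 in males. The sex difference in the effect of hyperoxia, with 6, ran from 2 to 1270. ATG in room air, with 1 gene in C3H and 9 in C57B, ran from 0 to 892 and from 0 to 19, and its strain difference from 0 to 17. ATG in hyperoxia, with 420 in C3H and 137 in C57B, ran from 7 to 861 and from 0 to 545, its strain difference, with 66, from 0 to 302, and ATG by air, with 470, from 2 to 1093. No paired analysis was possible because each mouse has its own number.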
